A study of Mus musculus with 8 samples.

Results

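The genes described here are interferon-induced effectors, a list of 34 genes that cells switch on in response to interferon, leaving out the IRF and STAT factors that switch them on. They were followed in multipotent progenitors from mouse bone marrow, in 4 arrays of FLT3-ITD cells and 4 of wild type cells. Of the 34 genes, 33 had at least 1 probe set in the platform annotation and 31 had a probe set of their own. The expression filter left 30 of them among the 10763 genes tested, out of 18193 measured. Ifi44, an interferon-induced cytoplasmic protein, had no probe set in that annotation, so its expression was not analysed here. Isg15 and Ifi205 were read only by probe sets shared with other genes, and the probe set of Ifi204 lay below the array median on all 8 arrays and was not tested.

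FLT3 is a receptor tyrosine kinase of early blood progenitors, and its ITD allele, an internal tandem duplication, is common in acute myeloid leukaemia. Both genotypes came from female C57BL6 mice 8 to 10 weeks old, and the cells were sorted as lineage-negative, Sca-1+, cKit+, CD48+ and CD150-. Neither the zygosity of the duplication nor how it was introduced is given in the sources used here, nor whether mice were pooled. Each genotype had replicates labelled 1, 2, 3 and 037. The labels do not explain 037, which may or may not repeat replicate 1. They also do not say whether the replicates were different mice, and the p-values therefore reflect the spread among these 8 samples alone, which may be technical. Of the genes used for sorting, Kit lay above the array median on all 8 arrays, between 8.77 and 9.80 on the log2 scale. Cd48 also did, and rose by 1.06 ± 0.13 (SE, limma, adjusted p = 0.0074) in FLT3-ITD. Slamf1, which encodes CD150, lay below the array median on all 8 arrays.

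Type I interferons bind a cell-surface receptor whose JAK kinases activate transcription factors that bind the interferon-stimulated response element, ISRE, before the induced genes. Interferon gamma acts through a separate receptor and the gamma-activated site, GAS. In blood formation, interferons can drive quiescent stem cells into cycle, and stem and progenitor cells are known to express some of these genes without infection.

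The interferon-stimulated genes did not move together between the genotypes. Across the 30 tested members, 13 differences (FLT3-ITD minus wild type) were above 0 and 17 below, with a median of -0.03 on the log2 scale, beside a median of 0.02 over all tested genes. Only Ifitm1 passed the test in its own probe set, where it rose, and no member fell (limma, adjusted p under 0.05). That is 1 of 30 members higher against 0.427% of all tested genes, and 0 of 30 lower against 0.177%. At an unadjusted p under 0.05, 5 members were higher and 1 was lower, against 5.74% and 3.84% of all tested genes. In 5 members (Ifitm1, Ifitm3, Gbp3, Igtp and Psmb9) every FLT3-ITD array lay above every wild type array, a separation that 3.77% of all tested genes showed. In 1 member, Oas2, every FLT3-ITD array lay below, as did 2.44% of all tested genes. The remaining 24 overlapped. The differences of 18 members were smaller than 0.3, and 22 of 30 had a 95% confidence interval wholly within 1 log2 unit of 0, which held for 73.3% of members and 81.8% of all tested genes. The median spread within a genotype was 0.34 for the members and 0.28 for all tested genes (residual SD).

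**Figure D1:**
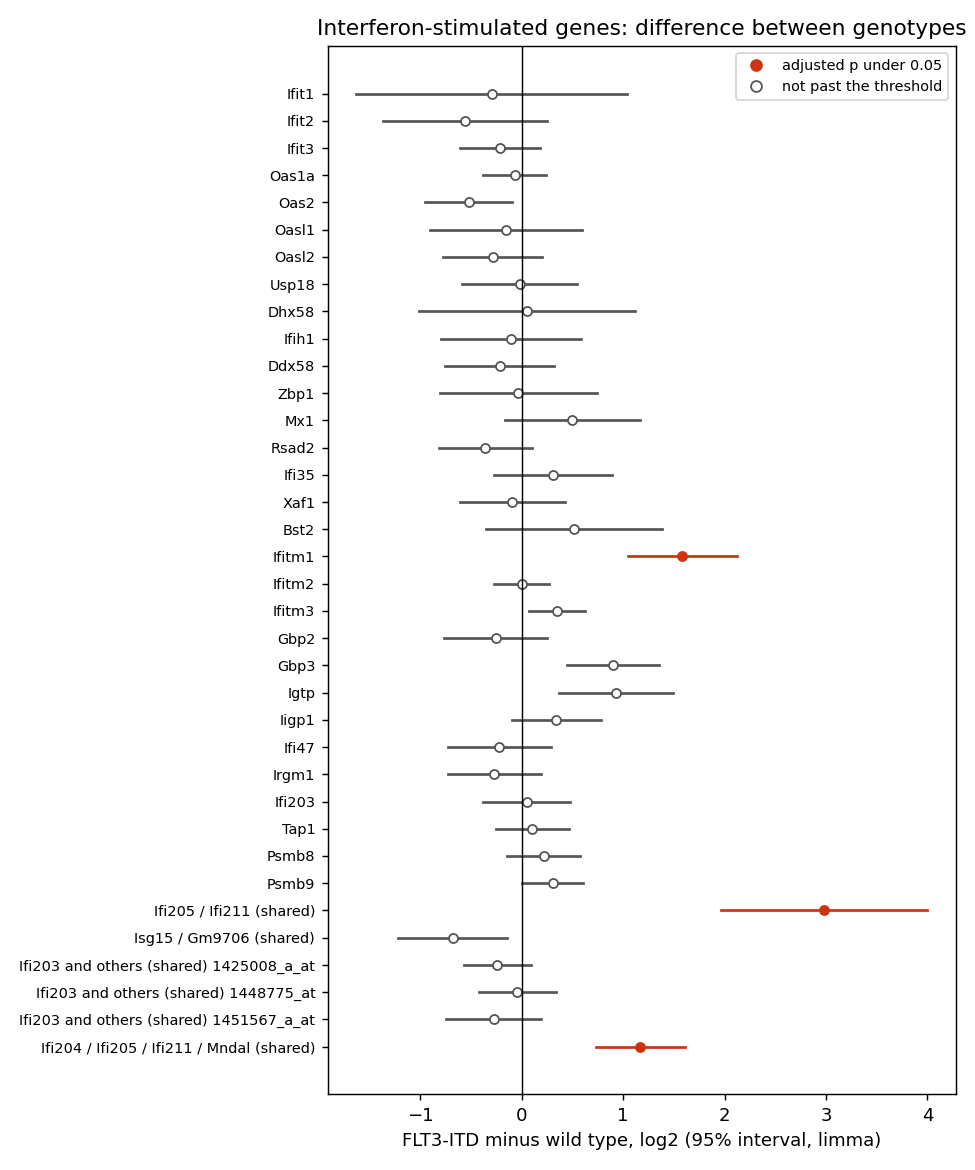
Difference between FLT3-ITD and wild type (log2, horizontal axis) with its 95% limma confidence interval, for the 30 tested members on their own probe sets and for 6 shared probe sets, 4 arrays per genotype. The filled red points, past an adjusted p of 0.05, are Ifitm1 at 1.58 and the shared probe sets of Ifi205 at 2.98 and 1.17, while most other intervals cross 0.

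Read as probe sets, 53 carried a member, 6 of them shared with other genes, and 44 were tested. Of these 44, 18 differences were above 0 and 26 below. The test was passed by 3, all of them higher, against 0.266% of the 22938 probe sets tested: Ifitm1 and both shared probe sets that carry Ifi205. None was lower, against 0.131%. At an unadjusted p under 0.05, 6 were higher and 3 lower, against 4.7% and 4.55% of all tested probe sets. The genotypes did not overlap in 7 that were higher and 2 that were lower, against 3.21% and 2.94% of all tested probe sets. In bulk samples such as these, fewer cells of a type and less RNA per cell cannot be told apart. Array medians lay between 5.98 and 6.05. Over the 45037 probe sets without controls, the correlation between any 2 arrays was 0.948 to 0.981, lowest for FLT3-ITD replicate 1 (0.948 to 0.959).

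Promoter sequence was taken from RefSeq (GRCm38.p6) for 27 of the 34 members, as the 250 bases before the start of the gene. An ISRE-like match, GAAA, any 2 bases and GAAA again on either strand, was found in 13 of 27 members (48.1%) and in 936 of 27025 genes in all (3.46%). A GAS-like match, TTCNNNGAA on either strand, was found in 5 of 27 (18.5%) and in 2197 genes in all (8.13%). The membrane gene Ifitm1, which rose, had neither motif in this window, and its neighbour Ifitm2, which did not pass the test, had 1 ISRE-like match lying 36 to 46 bases before its start. Igtp had an ISRE-like and a GAS-like match within 45 bases of its start, Gbp3 had a pair of overlapping ISRE-like matches in the same stretch before the first of its 2 listed starts, and Isg15 had 3 overlapping ones between 56 and 78 bases before its start. A match describes the letters and is not evidence of binding. The 6 promoters shown are those of Ifitm1, Gbp3 and Igtp, which separated by genotype in their own probe sets, of Ifi205 and Isg15, which did so only in shared probe sets, and of Ifitm2, which overlapped. Ifitm3 and Psmb9, which also separated, had neither motif and are not shown. Capitals mark ISRE-like and GAS-like matches, and each sequence reads toward the gene.
Ifitm1 (chr7:140967826-140968075, plus strand): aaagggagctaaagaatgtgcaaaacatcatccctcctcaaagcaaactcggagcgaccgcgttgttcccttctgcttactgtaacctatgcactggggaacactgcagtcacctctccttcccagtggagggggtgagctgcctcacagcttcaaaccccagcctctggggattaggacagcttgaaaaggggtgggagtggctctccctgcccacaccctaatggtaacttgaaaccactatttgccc
Ifitm2 (chr7:140955962-140956211, minus strand): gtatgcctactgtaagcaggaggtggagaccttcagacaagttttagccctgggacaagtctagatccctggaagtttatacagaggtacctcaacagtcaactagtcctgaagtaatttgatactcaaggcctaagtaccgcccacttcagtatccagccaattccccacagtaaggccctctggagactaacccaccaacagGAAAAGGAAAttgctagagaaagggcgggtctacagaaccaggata
Ifi205 (chr1:174031756-174032005, minus strand): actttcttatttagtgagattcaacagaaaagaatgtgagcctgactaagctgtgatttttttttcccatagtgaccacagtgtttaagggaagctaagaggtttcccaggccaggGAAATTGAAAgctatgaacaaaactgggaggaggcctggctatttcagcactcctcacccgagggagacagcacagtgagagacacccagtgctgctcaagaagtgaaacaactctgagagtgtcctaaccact
Gbp3 (chr3:142559794-142560043, plus strand): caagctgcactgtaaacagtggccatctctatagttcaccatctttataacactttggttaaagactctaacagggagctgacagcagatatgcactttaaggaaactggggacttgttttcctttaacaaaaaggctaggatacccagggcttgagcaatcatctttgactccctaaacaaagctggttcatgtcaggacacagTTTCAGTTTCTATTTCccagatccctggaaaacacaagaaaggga
Igtp (chr11:58199306-58199555, plus strand): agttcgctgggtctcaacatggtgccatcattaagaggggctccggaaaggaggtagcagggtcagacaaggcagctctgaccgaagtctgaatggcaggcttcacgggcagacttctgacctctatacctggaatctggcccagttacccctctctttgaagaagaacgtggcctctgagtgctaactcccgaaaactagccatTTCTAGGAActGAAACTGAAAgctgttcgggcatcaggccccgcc
Isg15 (chr4:156200819-156201068, minus strand): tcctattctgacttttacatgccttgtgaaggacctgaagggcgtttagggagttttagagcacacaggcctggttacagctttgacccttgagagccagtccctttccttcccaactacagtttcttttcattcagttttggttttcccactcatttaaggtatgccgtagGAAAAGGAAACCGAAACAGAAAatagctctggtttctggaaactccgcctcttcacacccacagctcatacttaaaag

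Among the other members, ISRE-like matches were present before Ifit1, Ifit3, Oas1a, Bst2, Irgm1, Gbp2, Rsad2 and Ifi203, and GAS-like matches before Ifit2, Oas1a, Bst2 and Psmb8. By role, 4 of 5 matched GTPases, 2 of 3 IFIT genes and 0 of 3 genes of MHC class I processing carried the ISRE-like letters. The motif was therefore present both before genes whose genotypes separated and before genes whose genotypes overlapped.

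Among the membrane restriction factors, small proteins that block viruses at cell membranes, Ifitm1 rose 3.00-fold in FLT3-ITD progenitors while its neighbour Ifitm2 differed by -0.00. IFITM proteins stop enveloped viruses from fusing with the cell, and Ifitm1 acts largely at the cell surface. The wild type arrays read Ifitm1 at 11.09, 10.94, 10.74 and 9.99 (replicates 1, 2, 3 and 037), and the FLT3-ITD arrays at 12.51, 12.28, 12.23 and 12.07. All 4 FLT3-ITD arrays lay above all 4 wild type arrays, and wild type 037 was the lowest of the 8. The means were 10.69 ± 0.49 and 12.27 ± 0.18 (SD, n = 4 each), a difference of 1.58 ± 0.24 (SE, limma, 95% interval 1.05 to 2.12, adjusted p = 0.0248). Within the 037 arrays the difference was 2.08, and over the other 6 arrays it was 1.42. The call was lost when any 1 of 6 arrays was left out: wild type 2 (adjusted p = 0.0591), wild type 3 (0.104), or FLT3-ITD 1 (0.0537), 2 (0.0769), 3 (0.0749) or 037 (0.0518), by limma. The difference stayed between 1.35 and 1.72.

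Ifitm2, an IFITM protein found mainly on endosomes, read 11.12, 11.13, 11.23 and 10.91 in wild type and 11.13, 11.15, 11.04 and 11.07 in FLT3-ITD. These ranges overlapped, and the difference was -0.00 ± 0.12 (SE, 95% interval -0.27 to 0.26, limma, adjusted p = 0.997), with a sign that turned under median centring and in 5 of 8 fits that left out an array. Ifitm3, the family member best known for restricting influenza virus in endosomes, read 12.39, 12.33, 12.28 and 12.25 in wild type and 12.86, 12.73, 12.57 and 12.50 in FLT3-ITD. The genotypes did not overlap, but the difference of 0.35 ± 0.12 (SE, 95% interval 0.07 to 0.63) did not pass the test (limma, adjusted p = 0.400). The 3 genes are neighbours on chromosome 7, in the order Ifitm2, Ifitm1, Ifitm3.

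The change of Ifitm1 was set directly against that of its neighbours within each array. Ifitm1 minus the mean of Ifitm2 and Ifitm3 was -1.02 ± 0.41 (SD, n = 4, log2) in wild type against 0.39 ± 0.10 (SD, n = 4) in FLT3-ITD. The wild type arrays ranged from -1.59 to -0.67 and the FLT3-ITD arrays from 0.29 to 0.52, without overlap. The difference of 1.41 had a two-sided exact permutation p of 0.0286, the smallest that 4 arrays against 4 can give. Ifitm1 was already known to have passed the test in these data, so this p is not independent support. The difference was 1.58 against Ifitm2 alone and 1.23 against Ifitm3 alone, and 1.22 to 1.53 when each array was left out in turn. Bst2, which encodes tetherin and holds budding viruses at the cell surface, read 8.72, 8.19, 8.12 and 7.91 in wild type and 9.99, 8.47, 8.20 and 8.33 in FLT3-ITD. FLT3-ITD replicate 1 stood apart and the rest overlapped, with a difference of 0.51 ± 0.38 (SE, limma, adjusted p = 0.738) that was 0.10 without that replicate.

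**Figure D2:**
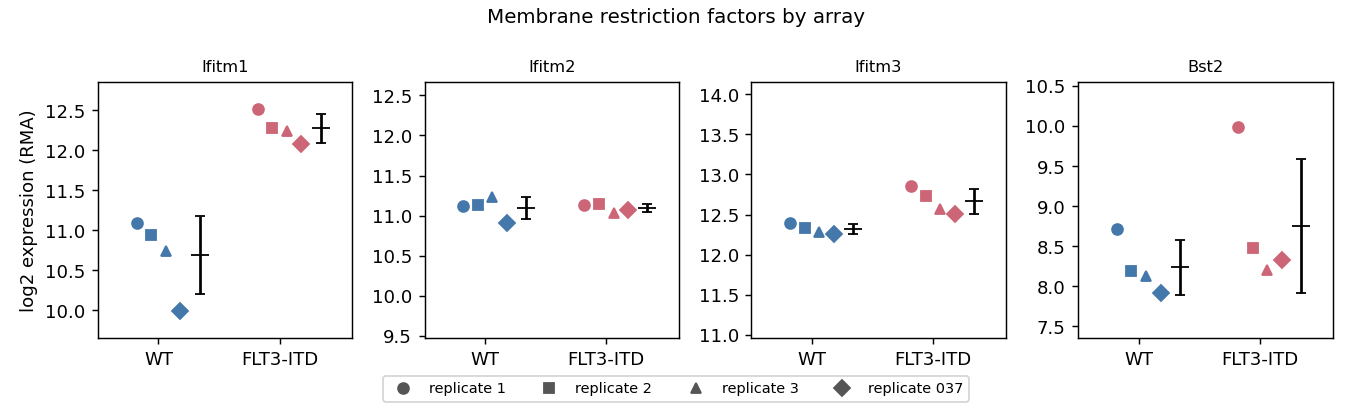
Log2 expression (RMA, vertical axis) of Ifitm1, Ifitm2, Ifitm3 and Bst2 in wild type and FLT3-ITD, each panel on its own range. Symbols are single arrays by replicate label and bars show the mean ± SD (n = 4). Ifitm1 separates between 11.09 and 12.07, Ifitm2 overlaps, and 1 FLT3-ITD array sets Bst2 apart at 9.99.

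The Ifi200 family, whose members carry DNA-binding HIN domains and lie side by side on chromosome 1, gave the largest difference among the tested member probe sets, but in a probe set that does not resolve single genes. That probe set, annotated to Ifi205 and Ifi211, rose 7.90-fold. It read 7.28, 8.62, 7.37 and 6.82 in wild type and 11.19, 10.61, 10.73 and 9.48 in FLT3-ITD. The lowest FLT3-ITD array, 037, still lay above the highest wild type array, replicate 2. The means were 7.52 ± 0.77 and 10.50 ± 0.73 (SD, n = 4 each), a difference of 2.98 ± 0.45 (SE, 95% interval 1.97 to 3.995, limma, adjusted p = 0.0363). Leaving out 1 array kept the difference between 2.75 and 3.35, and the call held only without wild type 2 (adjusted p = 0.0244) or without FLT3-ITD 037 (0.0215) by limma, and was lost without any other single array (0.0647 to 0.140). It was also lost with no filter on low values (0.0656).

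A probe set annotated to Mndal, Ifi211, Ifi205 and Ifi204 together rose 2.25-fold. It read 8.91, 9.12, 8.98 and 9.15 in wild type and 10.17, 10.54, 10.43 and 9.70 in FLT3-ITD. The genotypes did not overlap, and FLT3-ITD 037 was again the lowest FLT3-ITD array. The difference was 1.17 ± 0.19 (SE, limma, adjusted p = 0.0494), 0.56 within the 037 arrays and 1.38 over the others. Its call held only without FLT3-ITD 037 (adjusted p = 0.0158) and was lost without any other single array (0.0878 to 0.166). It was also lost with replicates 1 and 037 averaged (0.0545), with 037 as a block (0.0636), after quantile normalization (0.0546), with no filter (0.0692) and with a filter requiring all 8 arrays (0.0598).

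Probe sets of single Ifi200 genes showed which of these genes can be read alone. The own probe set of Ifi204, an innate DNA sensor, read 2.76, 2.67, 2.65 and 2.82 in wild type and 4.21, 3.51, 3.23 and 2.77 in FLT3-ITD. All 8 values lay below the array medians, so the difference of 0.71 was not tested. Mndal, which shares the 4-gene probe set, differed by 0.14 ± 0.22 and 0.31 ± 0.21 (SE) in its own probe sets, with overlapping genotypes. Ifi203 differed by 0.05 ± 0.19 (SE, limma, adjusted p = 0.961) in its own probe set. Its 3 shared probe sets gave -0.24, -0.04 and -0.28, all with overlapping genotypes, so neither kind of probe set separated the genotypes for Ifi203.

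Further family members outside the list were read after their values were seen, to place these probe sets. Ifi209 read 5.55, 5.62, 4.91 and 6.24 in wild type and 8.75, 8.74, 7.92 and 6.87 in FLT3-ITD, without overlap. Its difference of 2.49 ± 0.44 (SE) did not pass the test over probe sets (limma, adjusted p = 0.0622), and its second probe set gave 1.67 (0.359). Ifi207 read 2.63, 3.10, 3.19 and 2.73 in wild type and 7.36, 6.42, 5.81 and 3.06 in FLT3-ITD. It was too dim on most arrays to be tested, and FLT3-ITD 037 lay within the wild type range. Aim2, the DNA sensor of the AIM2 inflammasome, differed by -0.19 and Ifi202b by -0.09, both with overlapping genotypes. Along chromosome 1 the order of these genes is Ifi209, Ifi208, Ifi207, Ifi204, Mndal, Ifi211, Ifi203, Ifi202b, Ifi205.

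FLT3-ITD 037 was the lowest FLT3-ITD array in both shared Ifi205 probe sets, both Ifi209 probe sets, Ifi204 and Ifi207. It also had the largest 3' to 5' difference of the Gapdh control probe sets, 2.99 against 1.82 to 2.29 on the other 7 arrays, and of the actin ones, 0.17 against -0.48 to -0.32. Whether RNA quality has a part in its lower values was not tested.

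**Figure D3:**
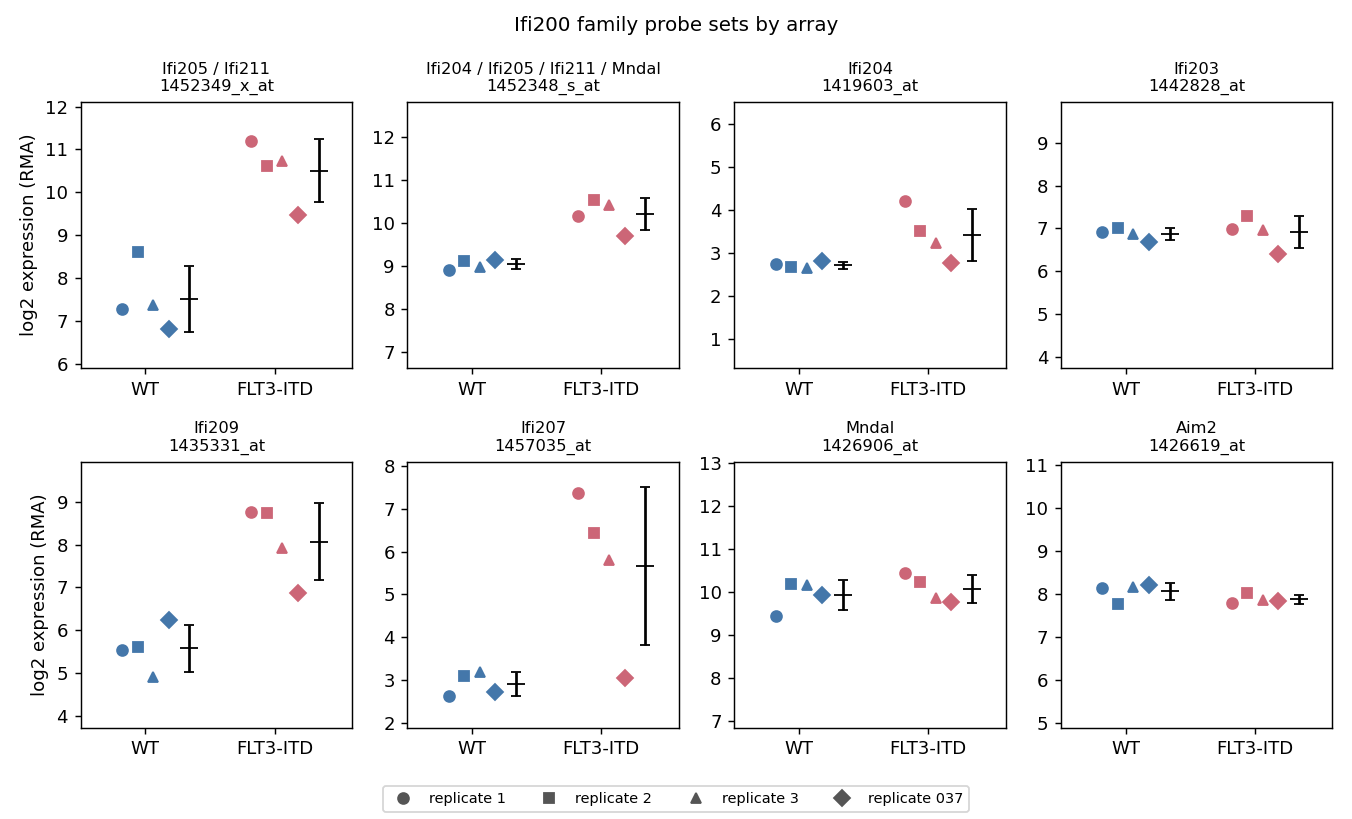
Log2 expression (RMA, vertical axis) of 8 Ifi200 family probe sets in wild type and FLT3-ITD, each panel on its own range, with symbols for single arrays and bars for the mean ± SD (n = 4). The shared probe sets and Ifi209 separate, Ifi203, Mndal and Aim2 overlap, and the diamond of FLT3-ITD 037 is the lowest FLT3-ITD point in 7 of the 8 panels.

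The interferon-induced GTPases split into a pair of genes whose genotypes separated and 4 whose genotypes overlapped, and none of the 6 passed the test (limma), with 2 higher and 0 lower at an unadjusted p under 0.05. Gbp3, a guanylate-binding protein of the defence against intracellular pathogens, read 7.86, 7.67, 7.23 and 7.78 in wild type and 8.42, 8.24, 8.50 and 8.99 in FLT3-ITD. All FLT3-ITD arrays lay above all wild type arrays, with a difference of 0.90 ± 0.20 (SE, 1.86-fold, limma, adjusted p = 0.133). No alternative took its adjusted p below 0.0848.

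Igtp, an immunity-related GTPase that regulates the attack on vacuoles holding pathogens, read 7.41, 7.37, 7.52 and 8.11 in wild type and 8.15, 8.49, 8.36 and 9.15 in FLT3-ITD. The genotypes did not overlap, and the 037 array was the highest of its genotype in both. The difference was 0.93 ± 0.25 (SE, 1.91-fold, limma, adjusted p = 0.214). It was 1.04 within the 037 arrays and 0.90 over the others, and it passed the test only in the fit with 037 as a block (adjusted p = 0.0231).

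In the probe set of highest mean, the other 4 GTPases gave differences of both signs. Iigp1, which disrupts parasite vacuoles, differed by 0.34 ± 0.19 (SE, limma, adjusted p = 0.641), but its other probe set gave -0.09. Gbp2 (-0.26), Ifi47 (-0.22) and Irgm1 (-0.27), the last a regulator of the effector GTPases, lay slightly lower with adjusted p of 0.738 to 0.815 by limma. The other Gbp2 probe set, too dim to be tested, gave -0.70. In Ifi47, as in Igtp, the 037 array was the highest of its genotype in both, reading 9.47 for wild type and 9.37 for FLT3-ITD.

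**Figure D4:**
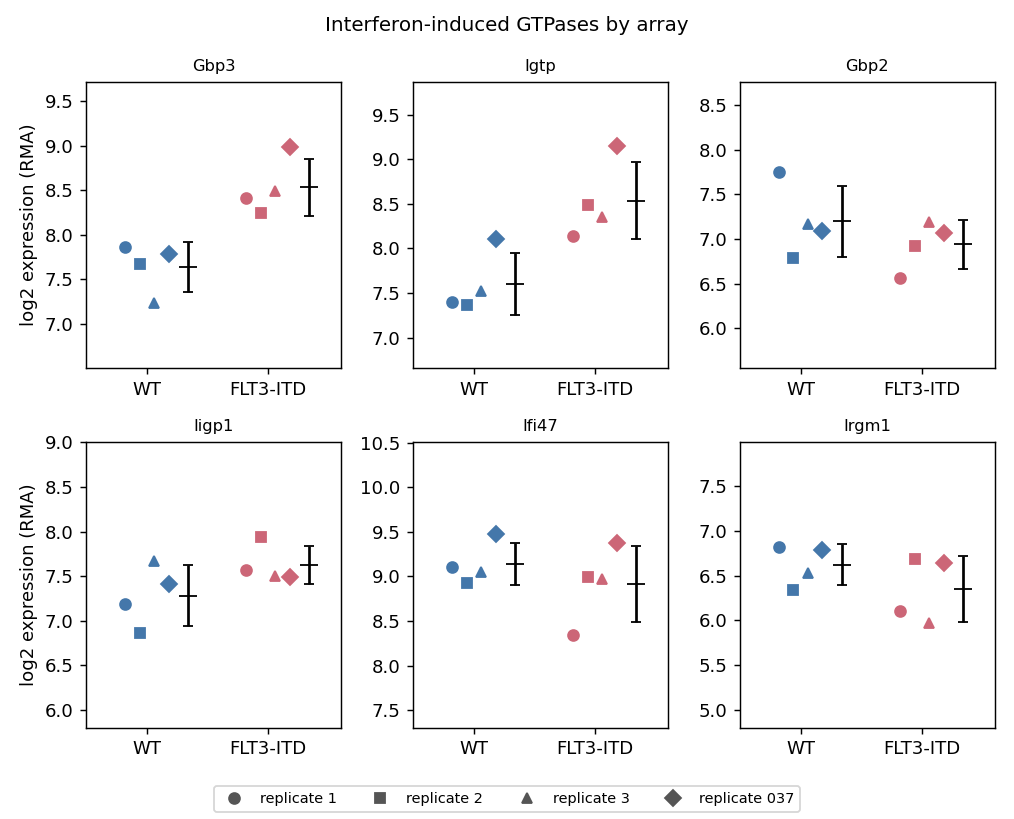
Log2 expression (RMA, vertical axis) of the 6 interferon-induced GTPases in wild type and FLT3-ITD, each panel on its own range, with symbols for single arrays and bars for the mean ± SD (n = 4). Gbp3 and Igtp separate by genotype without passing the test, and the other 4 overlap.

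Genes of MHC class I antigen processing all had differences above 0, but none of the 3 passed the test (limma), with 1 higher and 0 lower at an unadjusted p under 0.05. Psmb9, an inducible proteasome subunit that shapes the peptides shown on MHC class I, read 10.86, 10.85, 10.88 and 10.76 in wild type and 11.22, 11.37, 11.08 and 10.90 in FLT3-ITD. The genotypes did not overlap, although the closest arrays nearly met, and the difference was 0.30 ± 0.13 (SE, limma, adjusted p = 0.517). Psmb8, a further inducible proteasome subunit, differed by 0.22 ± 0.16 and Tap1, a subunit of the peptide transporter, by 0.10 ± 0.16 (SE). In these probe sets of highest mean the genotypes overlapped. The other Psmb8 probe set, too dim to be tested, read 5.01 to 5.18 in wild type and 5.23 to 5.69 in FLT3-ITD, without overlap. Tap1 and both proteasome genes lie together on chromosome 17, with Tap2 and MHC class II genes beside them.

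All 3 IFIT genes, which bind viral RNA and block its translation, had differences below 0, and none passed the test (limma), with none at an unadjusted p under 0.05. Ifit1 varied more within a genotype than between them. It read 8.84, 7.25, 6.12 and 7.53 in wild type and 8.36, 7.20, 6.57 and 6.44 in FLT3-ITD, a difference of -0.29 ± 0.59 (SE, 95% interval -1.63 to 1.04) that was 0.17 without wild type 1. Ifit2 read 8.48, 8.28, 7.70 and 7.59 in wild type and 6.41, 7.99, 7.63 and 7.78 in FLT3-ITD. FLT3-ITD 1 alone was low, and the difference of -0.56 ± 0.36 (SE, limma, adjusted p = 0.687) was -0.21 without that array. Ifit3 differed by -0.22 ± 0.17 (SE).

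The 4 OAS family genes also had differences below 0. OAS enzymes make the short RNA that switches on the RNA-cutting enzyme RNase L, and the OASL proteins are their relatives. Oas2 read 6.95, 6.83, 7.47 and 7.59 in wild type and 6.82, 6.57, 6.64 and 6.72 in FLT3-ITD. Every FLT3-ITD array lay below every wild type array, although the closest nearly met, and the difference of -0.52 ± 0.19 (SE, 95% interval -0.95 to -0.10) did not pass the test (limma, adjusted p = 0.417). Oas1a differed by -0.07 ± 0.14 (SE, 95% interval -0.38 to 0.24), Oasl1 by -0.15 ± 0.33 and Oasl2 by -0.29 ± 0.22 (SE). None of the 4 was called, and 1 was lower at an unadjusted p under 0.05.

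ISG15 is a ubiquitin-like protein joined to other proteins during the interferon response, and Usp18 removes it and damps receptor signalling. The probe set shared by Isg15 and Gm9706 read 7.91, 7.85, 7.83 and 8.17 in wild type and 6.68, 7.62, 7.72 and 7.04 in FLT3-ITD. All FLT3-ITD arrays lay below all wild type arrays, and the difference of -0.68 ± 0.24 (SE) did not pass the test (limma, adjusted p = 0.422). Usp18 differed by -0.02 ± 0.25 (SE), with overlapping genotypes.

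Among the sensors, Ddx58 encodes RIG-I and Ifih1 encodes MDA5, which detect viral RNA in the cytosol. Dhx58 encodes LGP2, which modulates both, and Zbp1 detects Z-form nucleic acids. The differences were -0.22 ± 0.24 for Ddx58, -0.11 ± 0.30 for Ifih1, 0.05 ± 0.47 for Dhx58 and -0.03 ± 0.34 for Zbp1 (SE), all with overlapping genotypes. The other probe sets of Ddx58 gave -0.69 and -0.36, those of Dhx58 gave 0.22 and 0.55, and that of Zbp1 gave 0.01. Of these, the Ddx58 one at -0.36 and the Dhx58 one at 0.55 were too dim to be tested. In the probe set of highest mean none of the 4 sensors passed the test (limma) or had an unadjusted p under 0.05, and of the other probe sets the Ddx58 one at -0.69 had an unadjusted p of 0.0278 by limma.

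Mx1, a GTPase that traps viral nucleocapsids, differed by 0.50 ± 0.29 (SE, limma, adjusted p = 0.662), the largest difference above 0 among the 4 remaining effectors. Its level was low, at 5.02 to 6.11 in wild type and 5.81 to 6.71 in FLT3-ITD. The probe set of Mx1 exceeded the array median on only 4 arrays, the fewest that enter the test. Rsad2, which encodes the antiviral enzyme viperin, differed by -0.36 ± 0.20 (SE), and its other probe sets gave -0.67 and -0.28. Ifi35, an interferon-induced leucine zipper protein, differed by 0.31 ± 0.26 (SE), but its other probe sets gave -0.05 and -0.08. Xaf1, a partner of the apoptosis inhibitor XIAP, differed by -0.09 ± 0.23 (SE). In the probe set of highest mean the genotypes overlapped in all 4, none passed the test (limma) and none had an unadjusted p under 0.05. The Rsad2 probe set at -0.67 was too dim to enter the test.

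**Figure D5:**
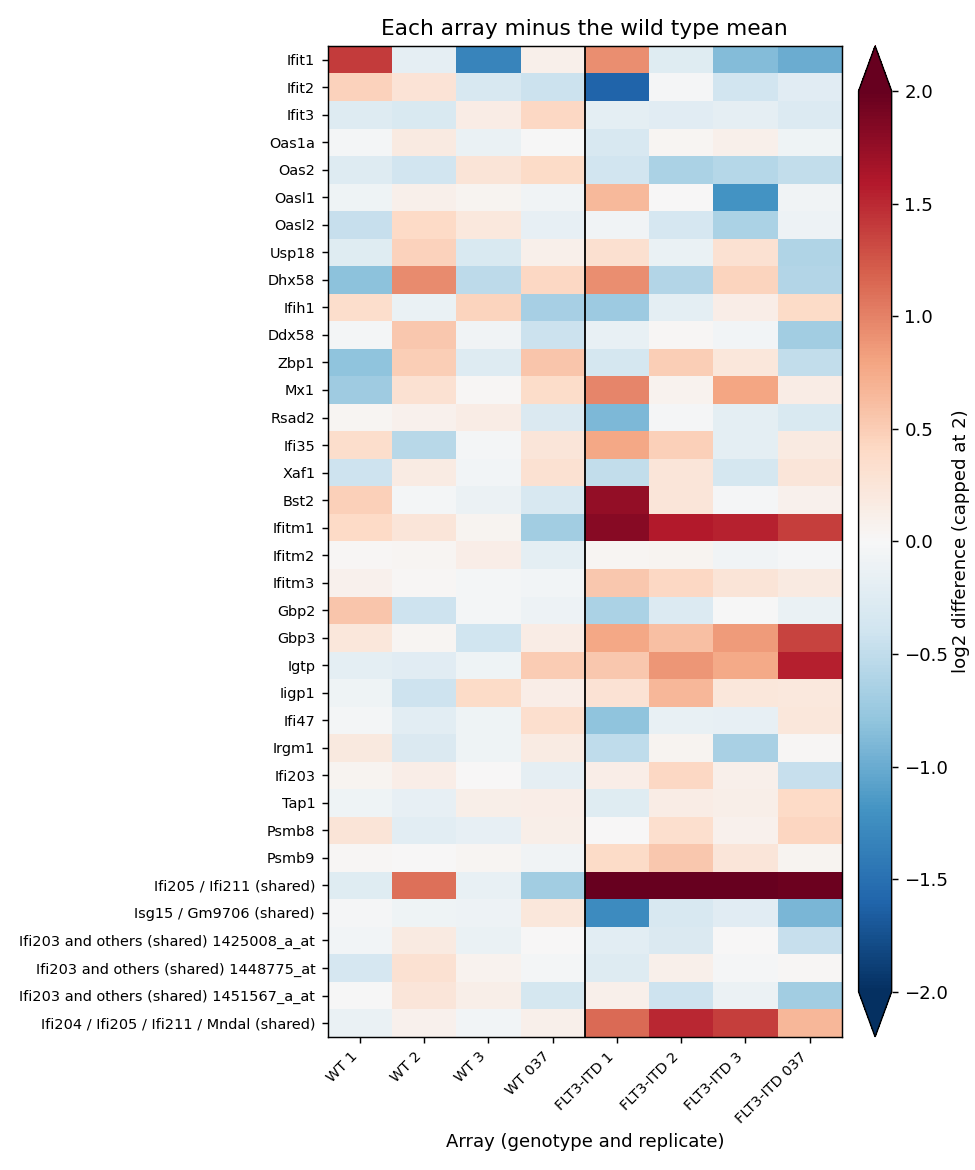
Log2 difference of each array (columns) from the wild type mean for every tested member and 6 shared probe sets (rows), from blue (lower) to red (higher), with the colour capped at 2. Among the rows red in all 4 FLT3-ITD columns are Ifitm1, Gbp3, Igtp, the shared Ifi205 probe sets and, more faintly, Ifitm3. Among the rows blue in all 4, some faintly, are Ifit2, Ifit3, Oas2, Oasl2, Rsad2 and the shared Isg15 probe set.

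The machinery that makes and reads interferon was described by 85 further genes, of which 76 were measured and 64 tested. Of the 64, 37 differences were above 0 and 27 below, with a median of 0.08. An unadjusted p under 0.05 was reached by 9 of them, against 9.58% of all tested genes. The test was passed by 2, both higher, and by none lower (limma), against 0.427% and 0.177% of all tested genes. Irf8, which encodes a regulator of the monocytic and dendritic lineages, rose by 2.64 ± 0.31 (SE, limma, adjusted p = 0.0074), from 6.33 to 7.75 in wild type to 9.08 to 10.03 in FLT3-ITD. Tlr3, the endosomal receptor for double-stranded RNA, rose by 4.36 ± 0.57 (SE, limma, adjusted p = 0.0122), from 4.58 to 5.72 in wild type to 7.59 to 10.21 in FLT3-ITD. The wild type values lay below the array median and the 4 FLT3-ITD values above it, so Tlr3 entered the test only through FLT3-ITD. Irf8 and Tlr3 were also called with no filter.

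The receptors and kinases that transmit the signal were not called in either direction (limma), with 1 receptor higher and no kinase or ISGF3 gene at an unadjusted p under 0.05. Of 5 tested receptor genes, Ifngr2 differed by 0.47 and Ifnar2 by -0.25. Of 5 tested genes for JAK kinases and the transcription factor complex ISGF3, Jak2 differed by 0.60 and Tyk2 by 0.38. Only 1 of 5 measured interferon genes passed the filter, Ifna5, at 0.08. The other most changed genes by p were Irf5 (0.45) among the regulatory factors, Mb21d1, the DNA sensor cGAS (0.70), among the sensors, and Pias1 (0.43) and the phosphatase gene Ptpn6 (-0.41) among the negative regulators, none past the test.

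Among 24 tested interferon-induced effectors outside the member list, 12 differences were above 0 and 12 below, with a median of -0.02. None was called (limma), and 2 were higher and 2 lower at an unadjusted p under 0.05, against 5.74% and 3.84% of all tested genes. Ifi27l2a, a small mitochondrial interferon-induced protein, differed by 1.15 ± 0.28 (SE, limma, adjusted p = 0.162) and Rtp4, a chaperone of receptors, by -0.79 ± 0.19 (0.153), both without overlap between the genotypes. Of 9 other tested genes, all of MHC class I presentation except Uba7, 6 differences were above 0 and 3 below. None was called or had an unadjusted p under 0.05 (limma). Psme1, a proteasome activator subunit, differed by 0.22 (limma, adjusted p = 0.638), without overlap between the genotypes. Uba7, the enzyme that activates ISG15, differed by 0.33 (limma, adjusted p = 0.732), with overlap.

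Markers of other cell types moved with the genotype in the same arrays as Ifitm1 and the Ifi205 probe sets. Beside the marker counts here and below, 0.427% of all tested genes were called higher and 0.177% lower (limma). At an unadjusted p under 0.05, 5.74% of all tested genes were higher and 3.84% lower. The mean level of the 7 measured conventional dendritic cell markers was 6.29 to 6.59 in wild type and 7.53 to 8.70 in FLT3-ITD. Of the 4 tested, H2-Ab1 (by 3.58) and Cd74 (by 4.12), both of MHC class II presentation, rose, and Flt3 fell by 1.17. Flt3 is also the gene that carries the duplication, so its level cannot be read as a cell type marker alone. Zbtb46 differed by 2.38 without passing the test, so that 3 were higher and 1 lower at an unadjusted p under 0.05. Itgax (1.24) and Xcr1 (1.86) also separated by genotype but were too dim on most arrays to be tested. Cd209a lay below the array median on all 8 arrays. The mean level of the 8 monocyte and macrophage markers was 5.55 to 6.15 in wild type and 6.63 to 7.22 in FLT3-ITD, and 1 of 4 tested, the chemokine receptor gene Ccr2, rose (by 3.62). Ccr2 exceeded the array median on all 4 FLT3-ITD arrays but only 1 wild type array, 037, so it entered the test through FLT3-ITD. It was also called with no filter. Ly86 (2.39) and Ms4a6c (1.72) separated by genotype without passing the test, and 3 were higher and 0 lower at an unadjusted p under 0.05. Like Zbtb46, Ly86 exceeded the array median on 6 of 8 arrays, all 4 FLT3-ITD arrays among them. Fcgr1 (-0.38) and C1qa (-0.43) were not tested. Adgre1 and Cd14 lay below the array median on every array. The part of these cells in the differences of Ifitm1, the Ifi205 probe sets, Gbp3, Igtp and Irf8 was not tested.

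Plasmacytoid dendritic cells are a main source of type I interferon. Their 8 markers had a mean level of 7.13 to 7.34 in wild type and 7.01 to 7.30 in FLT3-ITD, and 0 of 7 tested passed the test (limma), with 0 higher and 1 lower at an unadjusted p under 0.05. Siglech, a defining marker of these cells, differed by -0.02. Of the neutrophil markers all 6 tested had differences below 0 and none was called (limma), with 3 lower at an unadjusted p under 0.05, and 2 of 3 tested erythroid genes, Hbb-b2 and Slc4a1, fell. Hbb-b2 fell by 2.76 and Slc4a1 fell by 2.10. Slc4a1 lay above the array median on the 4 wild type arrays alone, so it entered the test only through wild type. Both genes were also called with no filter. None of the 2 tested B cell or 2 tested T and NK cell markers was called or had an unadjusted p under 0.05.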

How the data were processed

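RNA of sorted bone marrow progenitors was amplified, labelled and hybridised to Affymetrix mouse genome arrays, 1 per sample, 4 wild type and 4 FLT3-ITD. The deposited table holds log2 expression values that the authors made with RMA, per the submitters' processing notes, with the version not given in the sources used here. RMA corrects background, normalizes arrays to 1 distribution and summarises probes, so levels of different probe sets cannot be compared and small changes can be compressed. The number of arrays limits the precision.

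Of 45101 deposited probe sets, 64 controls were left out. The platform annotation, updated in 2016, gave 34945 probe sets 1 gene, 932 several and 9160 none, and symbols were updated through RefSeq for 34741. A gene was read by its probe set of highest mean over all arrays, shared probe sets being read separately, and entered the test when its probe set exceeded the median of the array in 4 or more of the 8 arrays. Genotypes were compared with limma (version 3.58.1, R 4.3.3) over all genes and, separately, all probe sets passing the filter, with Benjamini-Hochberg adjustment and a threshold of 0.05. A difference is FLT3-ITD minus wild type. Single values were compared by two-sided exact permutation tests. The fit was tested on simulated data, and figures were drawn with matplotlib 3.10.9 in Python 3.11.15.

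The members and lists were chosen with earlier results of these data known. Every member was named, as were all pathway and marker genes past the test and the 2 pathway genes of smallest p in each list. Mx1, Oas2, Usp18, Zbp1, Iigp1, Dhx58 and Ifi204 were not matched in the RefSeq promoter table. Alternatives were a replicate block, 037 as a block or averaged with replicate 1, quantile normalization, median centring, other filters, the mean over probe sets, an intensity trend and leaving out each array.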

Additional observations from a re-analysis of the deposited data

Results flagged for a closer look

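Among 104 groups of 4 arrays examined, 2 held an array whose gap to its nearest neighbour exceeded Dixon's 95% critical value, where chance gives about 1 in 20. Bst2 read 9.99 on FLT3-ITD replicate 1 and 8.20 to 8.47 on the other FLT3-ITD arrays. Psme1 read 11.69 on FLT3-ITD replicate 037 and 11.46 to 11.47 on the others.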

How the results depend on the processing

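In the fits over genes that kept all arrays, Ifitm1 was higher and past the threshold, with adjusted p between 0.00673 and 0.0493 by limma. In the fits over probe sets it lost the call with no filter and with the replicate block. Leaving out each array gave 1.35 to 1.72 for its difference, with adjusted p of 0.0168 to 0.104, and 0 to 1 member genes called higher. With 037 as a block, 2 member genes were higher, Ifitm1 and Igtp. Of the member probe sets, 0 were higher with no filter, against 3 with it, and 0 to 2 when an array was left out. No member was lower in any of these fits. Over all alternatives for the 30 tested member genes, 468 values kept direction and side of the threshold, 6 lost the call (all Ifitm1 without an array), 1 gained it (Igtp) and 30 uncalled differences turned sign, the causes not tested. A filter requiring all 8 arrays gave 18 genes higher and 7 lower over all genes, against 46 and 19.

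The replicate numbers were not shown to pair the samples: deviations of same-numbered arrays correlated at 0.027, 0.037, 0.065 and 0.110, and 6 of 8 arrays correlated best with their own number, a hint from the data only. With the replicate block, 19 genes were higher and 3 lower over all genes, and Ifitm1 differed by 1.58 (adjusted p = 0.0493, limma). In that fit 0 member probe sets were called, the shared Ifi205 probe sets having adjusted p of 0.0678 and 0.169. The alternatives for these shared probe sets were chosen after seeing the data. With 4 arrays a genotype, 8 of 30 members had intervals reaching beyond 1 log2 unit.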

Other observations

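The median difference of the 30 members from their wild type means was close to 0 on each array, at -0.01, 0.03, -0.04 and 0.10 on the wild type arrays and 0.02, 0.05, 0.04 and -0.00 on the FLT3-ITD arrays (replicates 1, 2, 3 and 037). No single array was high or low across the list. FLT3-ITD replicate 1 was the highest of the 8 arrays for 6 members and the lowest for 8.

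The members that varied most within a genotype were Ifit1 and Dhx58, with residual SDs of 1.00 and 0.79 log2 units against a median of 0.34 over the members. Dhx58 read 6.12, 7.88, 6.41 and 7.35 in wild type and 7.86, 6.36, 7.39 and 6.35 in FLT3-ITD, with a high and a low pair of arrays in each genotype.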
